A study of Mus musculus with 4 samples.

Results

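The MHC class II genes described here are 7 genes set by name, H2-Aa, H2-Ab1, H2-Eb1, H2-DMa, H2-DMb1, Cd74 and Ciita, out of 50766 genes in the gene tables of a single-cell RNA series from mouse liver. Each of the 7 was counted in all 4 libraries. The cells came from mice of the genotype Sox9EGFP, which all libraries share, and the labels name their type as biliary epithelial cells (BECs), the lining of the bile ducts. The libraries labelled sham 1 and sham 2 were taken 7 days after sham surgery, and those labelled BDL 1 and BDL 2 followed bile duct ligation (BDL), which blocks bile flow, by the same 7 days. Age, sex and the way the cells were isolated are not given in the sources used here. The sample titles carry a different number for each library, which was taken as a separate mouse (n = 2 per group), and library numbers were given in sample order and pair nothing.

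The cell table that accompanies each library holds a group name as well. It matches the label in sham 1 and BDL 1, but reads BDL for sham 2 and sham for BDL 2. Depth and cell make-up ran with the labels: the subcluster of bile duct cells led by Kcnma1 and Alb held 61.8% and 62.8% of such cells in sham 1 and sham 2, and 0.255% and 0.105% in BDL 1 and BDL 2. Groups below follow the labels, and values for the pair sham 1 and BDL 1, whose names match, are given separately.

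Class II molecules are heterodimers of an alpha and a beta chain that carry peptides of endocytosed proteins to the cell surface, where CD4+ T cells read them. H2-Aa and H2-Ab1 encode the alpha and beta chain of the A molecule, and H2-Eb1 encodes the beta chain of the E molecule. Cd74 encodes the invariant chain, which fills the peptide groove of new dimers and guides them to the endosome, and which on the cell surface is a receptor for the cytokine MIF. The H2-DM dimer of H2-DMa and H2-DMb1 exchanges the last fragment of the invariant chain for peptide. Ciita encodes the coactivator that opens class II promoters without binding DNA itself: it docks on factors at the X and Y boxes of these promoters, and interferon gamma is its best known inducer. Dendritic cells, macrophages and B cells carry class II at rest, whereas epithelial cells, bile duct cells among them, are known to gain it in inflammation.

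Letters of the X and Y boxes were found in some of the members' promoters. The 3 stretches shown hold letters of the X1 box and the Y box, or of the Y box without the X1 box, upstream of chain and H2-DM genes. RefSeq promoter windows of 300 bases (250 before and 50 after the start of a gene, build GRCm38.p6) matched 4 of the 7 members by symbol: H2-Aa, H2-Eb1, H2-DMa and H2-DMb1. H2-Ab1, Cd74 and Ciita were not matched. The letters marked here, searched on both strands, were AGNAAC for the core of the X1 box and ATTGG for the Y box. Letters of other motifs were searched too and are not marked, among them TGACG for the core of the X2 box. A pair was an X1 core followed on the same strand by a Y box that starts 25 to 45 bases further on, so that its parts cannot overlap. Each printed stretch runs from 150 to 31 bases before the start of its gene, 5′ to 3′ on the gene's strand, with the pair and the bases between in capitals, or the Y box alone where there is no pair.
H2-Eb1, chr17:34305717-34305836, plus strand: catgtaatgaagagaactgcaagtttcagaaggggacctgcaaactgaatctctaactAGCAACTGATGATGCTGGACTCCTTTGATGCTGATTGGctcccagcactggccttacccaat
H2-DMb1, chr17:34153041-34153160, plus strand: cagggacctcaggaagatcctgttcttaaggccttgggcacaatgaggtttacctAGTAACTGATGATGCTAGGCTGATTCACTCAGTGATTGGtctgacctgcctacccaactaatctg
H2-Aa, chr17:34287854-34287973, minus strand: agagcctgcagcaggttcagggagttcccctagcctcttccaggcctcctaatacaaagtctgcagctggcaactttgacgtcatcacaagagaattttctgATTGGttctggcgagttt
The pair lay 92 to 55 bases before the start of H2-Eb1 and 95 to 57 bases before that of H2-DMb1, with 33 and 34 bases from the first base of the X1 core to the first of the Y box. It was found in 2 of the 5 member windows (H2-DMa has 2 starts) and in 1.14% of all 32851 windows. H2-Aa had the Y box letters 48 to 44 bases before its start and not the X1 core as spelled here, the second window of H2-DMa held 1 X1 core and 1 Y box that do not form the pair, its first window held neither, and 37.4% of all windows hold a Y box. The window of H2-Aa held the X2 core letters 2 times over both strands, the other member windows 0 times, and 20.8% of all windows hold them. The matches describe letters only.

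The deposited files hold 12211 cells, with median depths of 3260 and 2610 unique transcript counts (UMIs) per cell in sham 1 and sham 2, and 7058 and 7793 in BDL 1 and BDL 2. Clustering was done with the class II genes left out of the variable genes, so that they did not set the classes. Every cluster called BEC-like met 10 or 11 of 11 biliary markers, and the class held 2610, 2589, 1963 and 3814 cells in sham 1, sham 2, BDL 1 and BDL 2. The immune cluster held 11, 14, 17 and 37 cells. It was mixed, with 7 macrophage, 5 monocyte and 4 B-cell markers met, and is called by no single cell type. Mesenchymal-like cells numbered 188, 417, 71 and 132. Libraries shared 0 cell barcodes. The doublet caller marked 11 of 12194 cells, 0.0902%, so few that it is taken not to have worked, and doublets remain in the data.

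In BEC-like cells, Cd74 rose after ligation and H2-Eb1 fell, and for the other 5 members the test did not separate the groups. Counts were summed over the BEC-like cells of each library and tested by edgeR's quasi-likelihood method, with p-values adjusted after Benjamini and Hochberg over all 16035 genes tested. All 7 members passed the filter on low counts. Of them 2 of 7 were called, 1 higher and 1 lower, where 27.2% of all genes tested were called (2283 higher and 2078 lower). The BDL and sham libraries did not overlap for 6 of the 7 members, against 68.9% of all genes. The members' median log2 fold change was -0.51 and that of all genes -0.02. The levels that follow are CPM, a gene's count relative to all counts of the summed cells, scaled by edgeR's TMM factors. They are not corrected for transcript length, so a gene's level is compared only with its own.

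**Figure D1:**
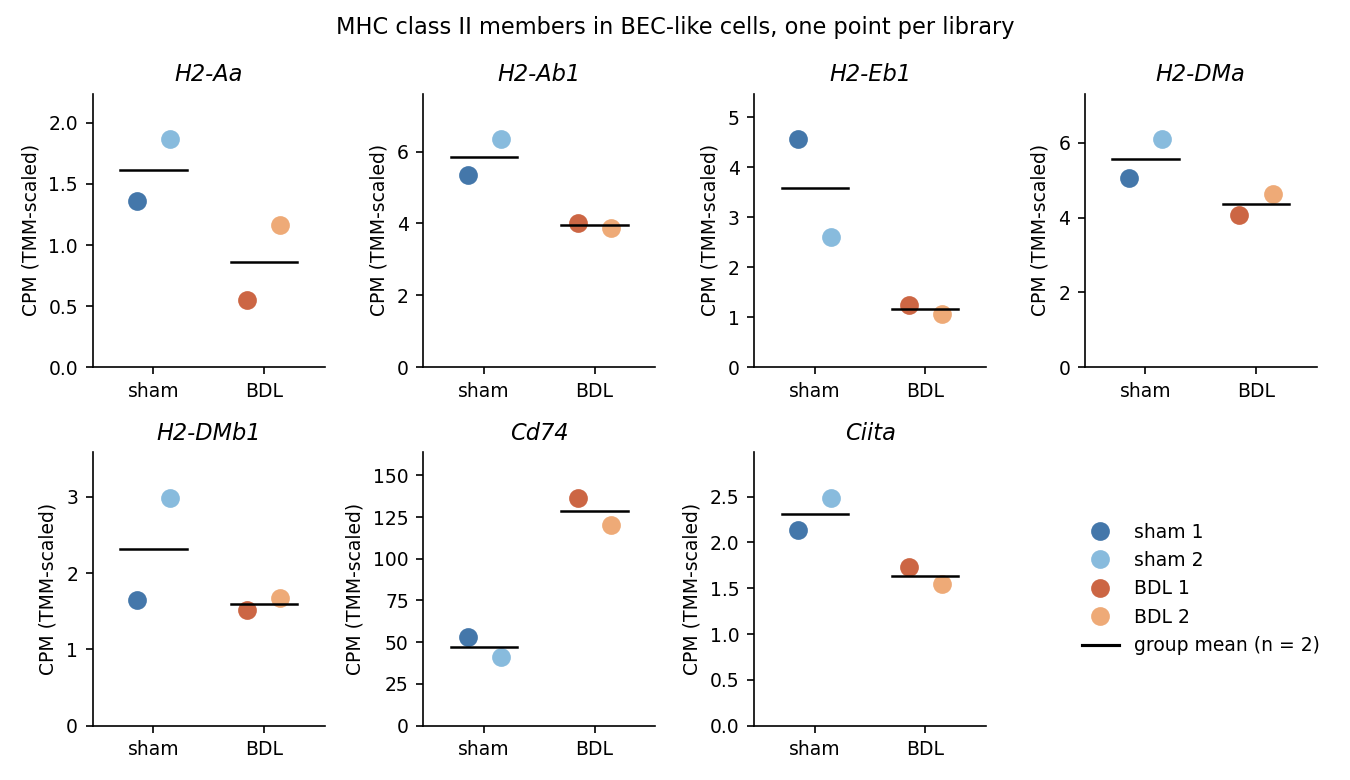
TMM-scaled CPM of each class II member in BEC-like cells; each point is a library, the black line is the group mean (n = 2), and every axis starts at 0. Cd74 lies at 53.4 and 41.0 in the sham libraries and at 137 and 120 in the BDL libraries, and the other members lie lower in the BDL group mean, with H2-DMb1 the only member whose groups overlap.

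Cd74, the invariant chain, stood at 53.4 and 41.0 CPM in sham 1 and sham 2 and at 137 and 120 CPM in BDL 1 and BDL 2. Both BDL libraries lay above both sham libraries. The means were 47.2 ± 8.80 and 128 ± 11.8 CPM (SD, n = 2 per group), a log2 fold change of 1.44 (SE 0.16, edgeR adjusted p = 0.00163). In the pair whose cell tables match their labels, BDL 1 over sham 1, the log2 ratio was 1.36. Without sham 2 the fitted log2 fold change was 1.29, and without BDL 2 it was 1.54 (edgeR adjusted p = 0.010 and 7.76e-09). The values rest on 550, 329, 1975 and 3805 UMIs, the largest counts of any member. Each library was split over 8 sublibraries, and the raw Cd74 level ranged over them from 38.3 to 79.7 CPM in sham 1, from 17.9 to 54.9 in sham 2, from 110 to 147 in BDL 1 and from 105 to 141 in BDL 2. The Cd74 ranges of the sham and BDL libraries did not overlap. Those of the summed chains did, at 0 to 15.8 and 0 to 19.5 CPM over the sublibraries of sham 1 and sham 2 and 3.13 to 13.1 and 3.51 to 9.51 CPM over those of BDL 1 and BDL 2.

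H2-Eb1, the E beta chain, stood at 4.56 and 2.61 CPM after sham surgery and 1.25 and 1.07 CPM after ligation. The sham libraries were both above the BDL libraries but differed from each other more than the BDL libraries did. The means were 3.59 ± 1.38 and 1.16 ± 0.122 CPM (SD, n = 2 per group), a log2 fold change of -1.65 (SE 0.41, edgeR adjusted p = 0.0279). The call rests on 47, 21, 18 and 34 UMIs, of which 8 in BDL 2 came from 1 cell. Without sham 1 the log2 fold change was -1.17 and the call was lost (edgeR adjusted p = 0.237). The pair sham 1 and BDL 1 gave a log2 ratio of -1.87, and the fit gave -1.96 without sham 2 and -1.53 without BDL 2 (edgeR adjusted p = 0.0496 and 0.0283).

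The A chains were lower in the BDL libraries without passing the test. H2-Ab1, the A beta chain, had 5.34 and 6.35 CPM in the sham and 4.01 and 3.88 CPM in the BDL libraries, a log2 fold change of -0.56 (SE 0.25, edgeR adjusted p = 0.136). H2-Aa, the A alpha chain, was at 1.36 and 1.87 CPM against 0.553 and 1.17 CPM, a log2 fold change of -0.83 (SE 0.52, edgeR adjusted p = 0.274) on 14, 15, 8 and 37 UMIs. The groups did not overlap for either gene, and their 95% intervals ran from -1.15 to 0.03 for H2-Ab1 and from -2.06 to 0.41 for H2-Aa. Leaving out single libraries moved H2-Aa between -1.5 (without BDL 2) and -0.42 (without BDL 1).

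The loading factor genes and the coactivator did not pass the test either. H2-DMa stood at 5.05 and 6.10 CPM in the sham and 4.08 and 4.64 CPM in the BDL libraries, a log2 fold change of -0.34 (SE 0.25, edgeR adjusted p = 0.344). H2-DMb1 stood at 1.65 and 2.99 against 1.52 and 1.67 CPM, a log2 fold change of -0.51 (SE 0.42, edgeR adjusted p = 0.401), and its groups overlapped. Without sham 2 its log2 fold change was -0.02. H2-DMb1 has a close copy, H2-DMb2, and how reads shared by both were counted is not given in the sources used here. Ciita stood at 2.14 and 2.49 against 1.73 and 1.55 CPM, lower in both BDL libraries (log2 fold change -0.50, SE 0.36, edgeR adjusted p = 0.341). The coactivator was read at 22, 20, 25 and 49 UMIs, and its 95% interval from -1.36 to 0.37 takes in no change. Cd74 thus had the sole rise among the 7, and the 6 others all had log2 fold changes below 0, of which H2-Eb1 alone was called. In the pair sham 1 and BDL 1 the log2 ratios of the 5 members not called were -1.30 for H2-Aa, -0.41 for H2-Ab1, -0.31 for H2-DMa, -0.12 for H2-DMb1 and -0.30 for Ciita, all below 0 as in the fit.

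The remaining class II chains were scarce, and 0 of 5 passed the filter. H2-Ob, the beta chain of the H2-DO dimer that restrains H2-DM, gave 11 and 6 UMIs in the BEC-like cells of sham 1 and sham 2, and 0 and 1 in those of BDL 1 and BDL 2. H2-Oa gave 1 UMI in each library, H2-Eb2 0 to 2 and H2-DMb2 0 to 4. H2-Ea, the E alpha chain that pairs with H2-Eb1, had 0 UMIs in BEC-like cells of all 4 libraries, which in the deepest, BDL 2, allows up to 0.0937 CPM (3 counts; counting error only). It had 0 UMIs in the immune cluster as well.

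Which cells carried the transcripts differed from member to member. Of all UMIs of Cd74 in the kept cells, 92.4% (6659 of 7209) lay in BEC-like cells, as did 94.3% of those of Ciita (116 of 123), 87.5% of those of H2-DMa (307 of 351) and 86.6% of those of H2-DMb1 (116 of 134). The chains were divided otherwise: over the 4 libraries the immune cluster, with 79 cells, held 59.9% of the H2-Aa UMIs (115 of 192), 50.2% of the H2-Eb1 UMIs (125 of 249) and a smaller part of the H2-Ab1 UMIs (127 of 423). These pooled shares hide a split by group. The immune cluster held 36.4% and 37.9% of the H2-Aa UMIs in sham 1 and sham 2 but 81.8% and 61.9% in BDL 1 and BDL 2, and for H2-Eb1 30.9% and 34.2% against 66.0% and 62.2%. In both sham libraries BEC-like cells held the larger part of the UMIs of each of the 3 chain genes, 51.7% to 79.7%, and in the BDL libraries they did so for H2-Ab1 alone. Relative to its total the immune cluster was far above BEC-like cells in each of the chain genes and Cd74. Its Cd74 level, not scaled by TMM, was 1263, 1445, 2342 and 1214 CPM in sham 1, sham 2, BDL 1 and BDL 2, and the summed level of H2-Aa, H2-Ab1 and H2-Eb1 was 856, 1131, 1570 and 916 CPM. These rest on few cells: 1 cell gave 56.5% of the Cd74 UMIs of the cluster in sham 1 and 87.0% in sham 2.

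**Figure D2:**
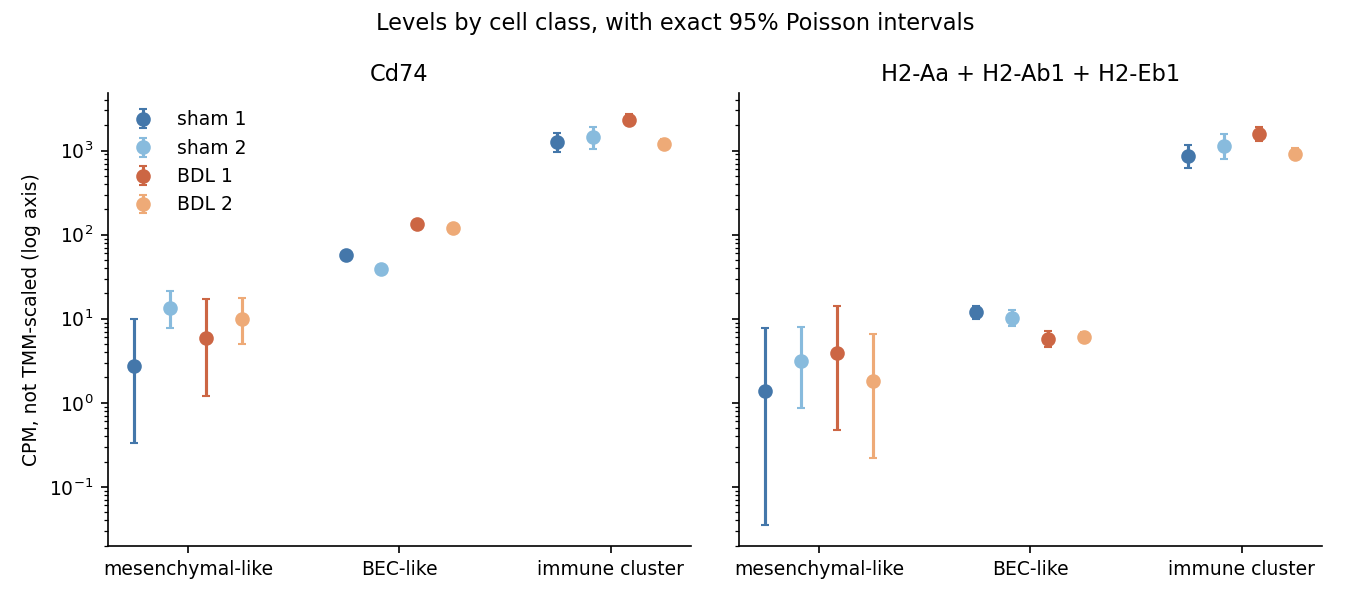
CPM without TMM scaling (log axis) of Cd74 and of the summed A and E chain genes in mesenchymal-like cells, BEC-like cells and the immune cluster, with a point per library and exact 95% Poisson intervals that cover counting error only. The immune cluster lies highest in both panels. The BEC-like level is higher in the BDL than in the sham libraries for Cd74 and lower for the chains.

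The level in BEC-like cells was set beside that of immune genes, as a share of the level in the immune cluster of the same library. Cd74 in BEC-like cells was 4.48% of the immune level in sham 1, 2.70% in sham 2, 5.77% in BDL 1 and 9.79% in BDL 2. The summed chains were at 1.39%, 0.914%, 0.366% and 0.661%. Ptprc, which encodes CD45 and marks blood cells, was at 0.0545%, 0.00804%, 0.0904% and 0.0635%, on 1 to 6 UMIs per library. The sum of a panel of 20 immune genes was at 0.198%, 0.0420%, 0.114% and 0.157%, and 4 to 12 of the 20 had 0 UMIs in BEC-like cells. Against these 20 genes, Cd74 and the chains stood at a larger share of their immune level in each library. Left out of the panel, after their values were seen, were Csf1r, which BEC-like cells held at 28.2 to 37.4 TMM-scaled CPM, and Cd79a, at 3.75 to 6.43. Csf1r was at 73.2%, 15.6%, 10.8% and 16.5% of its immune level, above Cd74 in each library. With both genes added back the panel was at 3.34%, 1.25%, 1.73% and 2.86%, above the chains and below Cd74 in each library. The comparison with the panel thus depends on these 2 genes for the chains.

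The shares also depend on how immune cells are taken. With immune cells taken by at least 3 panel genes (2, 6, 8 and 11 cells; added after the data were seen), Cd74 in BEC-like cells was at 6.25%, 0.942%, 2.68% and 7.45% of the immune level in sham 1, sham 2, BDL 1 and BDL 2, and the groups overlapped. The chains were then at 3.29%, 0.318%, 0.161% and 0.397%. The order of the libraries in the Cd74 share thus differed between these choices of immune cells.

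The chains and Cd74 were not in the same proportion in the 2 classes. In the immune cluster the A and E chain genes made up 40.4%, 43.9%, 40.1% and 43.0% of the UMIs of chains and Cd74 together. In BEC-like cells they made up 17.4% (exact 95% Clopper-Pearson interval 14.6 to 20.5) in sham 1, 20.9% (17.1 to 25.1) in sham 2, 4.08% (3.27 to 5.03) in BDL 1 and 4.85% (4.21 to 5.56) in BDL 2. The BEC-like shares were below the immune shares in each library, and the intervals of the 2 classes did not overlap. With immune cells taken by at least 3 panel genes the immune shares were 28.6%, 43.9%, 41.4% and 48.9%, and in sham 1, on 14 UMIs, the interval of 8.39 to 58.1 took in the BEC-like share. The BEC-like share was 14.7 points lower in the BDL than in the sham libraries on average, with no overlap (exact permutation test, two-sided, p = 0.33, the smallest that 2 against 2 libraries allow).

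**Figure D3:**
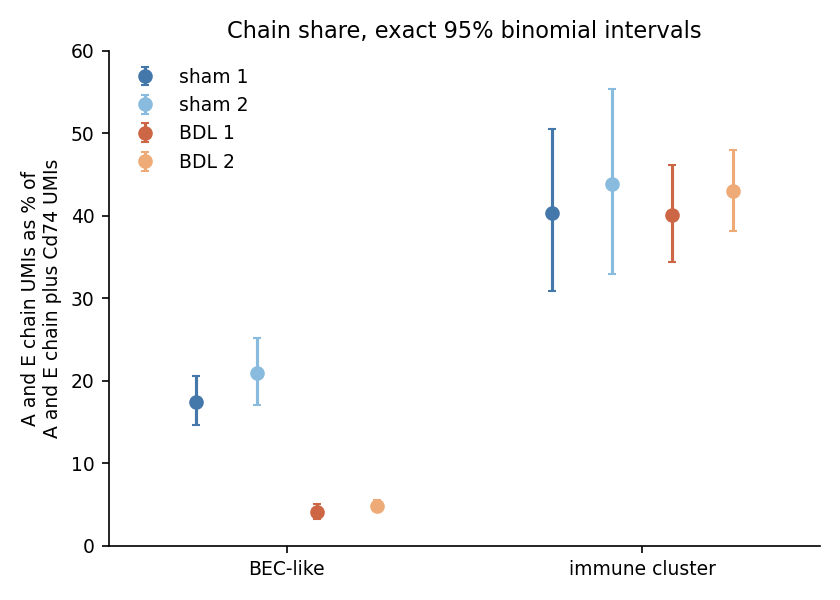
UMIs of H2-Aa, H2-Ab1 and H2-Eb1 as a percent of these plus Cd74, by library, in BEC-like cells and in the immune cluster, with exact 95% binomial intervals that cover counting error only. The immune cluster lies at 40.1 to 43.9% in all 4 libraries, BEC-like cells at 17.4 and 20.9% in the sham and at 4.08 and 4.85% in the BDL libraries.

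Marker lists of other immune cells were summed in BEC-like cells too, in CPM without TMM scaling. The sum of 7 monocyte genes was 314 and 295 in sham 1 and sham 2 and 536 and 800 in BDL 1 and BDL 2, higher after ligation as Cd74 was. Fn1, the fibronectin gene, gave most of it, and without Fn1 the list was at 21.8, 21.7, 19.9 and 21.2, nearly all of it Plac8. Ly6c2, Ccr2 and Chil3, which mark monocytes more closely, had 0 to 1 UMIs per library. The sums of 6 plasma cell genes (109 and 101 against 123 and 138) and 9 dendritic cell genes (39.9 and 39.2 against 57.7 and 40.6) were also higher in both BDL libraries, led by Xbp1 and Zbtb46. Without Xbp1 the plasma cell list overlapped between the groups (34.0 and 42.9 against 36.2 and 51.2). So did the dendritic cell list without Zbtb46 (2.36 and 2.61 against 2.53 and 0.750). Ighm and Cd209a were at 0 in all 4 libraries, but other genes of these lists were not. Jchain had 1 and 1 against 5 and 7 UMIs, Flt3 1 and 1 against 9 and 7, and Itgax 15 and 16 against 16 and 6. As for the chains, the sum of 8 B-cell genes was lower in the BDL libraries (11.4 and 10.5 against 9.18 and 7.06). Ebf1 went from 5.34 and 5.58 to 1.51 and 2.72 there, while Cd79a overlapped between the groups (4.21 and 4.28 against 6.37 and 3.72). The sum of 7 neutrophil genes was lower too (1.44 and 1.54 against 0.137 and 0.250). Most of it in the sham libraries was Csf3r (12 and 11 against 0 and 5 UMIs), and Retnlg and Ly6g were at 0 in all 4 libraries. The sum of 12 macrophage genes overlapped between the groups (44.9 and 42.4 against 42.7 and 45.2). Without Csf1r, which led it, the macrophage list was at 15.1 and 13.1 in the sham and 8.42 and 8.18 in the BDL libraries. It was then lower in both BDL libraries, and most of it was Cd68 (12.1 and 9.86 against 5.48 and 5.25). The sum of 10 T or NK cell genes overlapped (3.29 and 1.54 against 2.60 and 1.16). The part of these lists in the values of Cd74 and the chains was not tested.

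Leaving out the BEC-like cells with a panel UMI is of limited reach. Csf1r and Cd79a gave most of the panel UMIs in BEC-like cells (331 of 351, 283 of 292, 594 of 630 and 1305 of 1369), so that a filter on all 22 genes acts mainly through them. A filter on the other 20 genes kept 99.4%, 99.7%, 98.3% and 98.7% of the class in sham 1, sham 2, BDL 1 and BDL 2, too nearly all for the levels to move. The filter on all 22 genes kept 88.7%, 89.9%, 76.6% and 73.9%. Cd74 stood at 57.6, 37.6, 134 and 119 CPM in these cells without TMM scaling, against 56.5, 39.1, 135 and 119 CPM in all BEC-like cells, and the summed chains at 12.6, 9.85, 5.44 and 5.73 CPM against 11.9, 10.3, 5.75 and 6.06.

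Counted by cell, Cd74 was found in a larger share of BEC-like cells after ligation. With every cell thinned to 1000 UMIs, a Cd74 UMI was present in 4.42% and 3.22% of the BEC-like cells of sham 1 and sham 2, and in 11.2% and 11.1% of those of BDL 1 and BDL 2. Cells under 1000 UMIs were left out, 77 and 103 in the sham and 0 and 0 in the BDL libraries. The groups differed by 7.36 points without overlap (exact permutation test, two-sided, p = 0.33, the smallest possible). Without thinning the shares were 13.3%, 7.96%, 49.0% and 47.8%, at median depths of 3302, 2765, 7132 and 7877 UMIs. In mesenchymal-like cells, taken as cells that should lack class II, the thinned shares were 0%, 0.809%, 0% and 0%, and the unthinned shares 1.06%, 2.64%, 4.23% and 6.06% at median depths of 3243, 2300, 6294 and 7325 UMIs. The 0 of 71 cells in BDL 1 allows a share of up to 5.06% by the exact interval.

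The chains went the other way. After thinning, a UMI of H2-Aa, H2-Ab1 or H2-Eb1 was present in 1.14% and 1.13% of the BEC-like cells of sham 1 and sham 2, and in 0.764% and 0.498% of those of BDL 1 and BDL 2 (exact permutation test, two-sided, p = 0.33). Without thinning the shares were 3.49%, 2.74%, 3.57% and 2.99%, and the groups overlapped. The mean thinned share was 1.14% for sham and 0.631% for BDL, and the direction of this difference was not kept in the unthinned cells, which are deeper in the BDL libraries.

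Among BEC-like cells, Cd74 varied by subcluster. Clustering the BEC-like cells again gave 8 subclusters, named here by leading genes and used only in libraries that gave them 30 cells or more. Their make-up differed by group: those led by Kcnma1 and Alb and by Sgcd and Car4 were filled by the sham libraries, and 5 others by the BDL libraries. The subcluster led by Pde4c and Iqch was the one filled by all 4. In it, Cd74 had 56.5 and 38.5 CPM after sham surgery and 115 and 106 CPM after ligation (here and for the other subclusters without TMM scaling), on 98, 32, 204 and 102 UMIs. The groups did not overlap within this subcluster either.

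**Figure D4:**
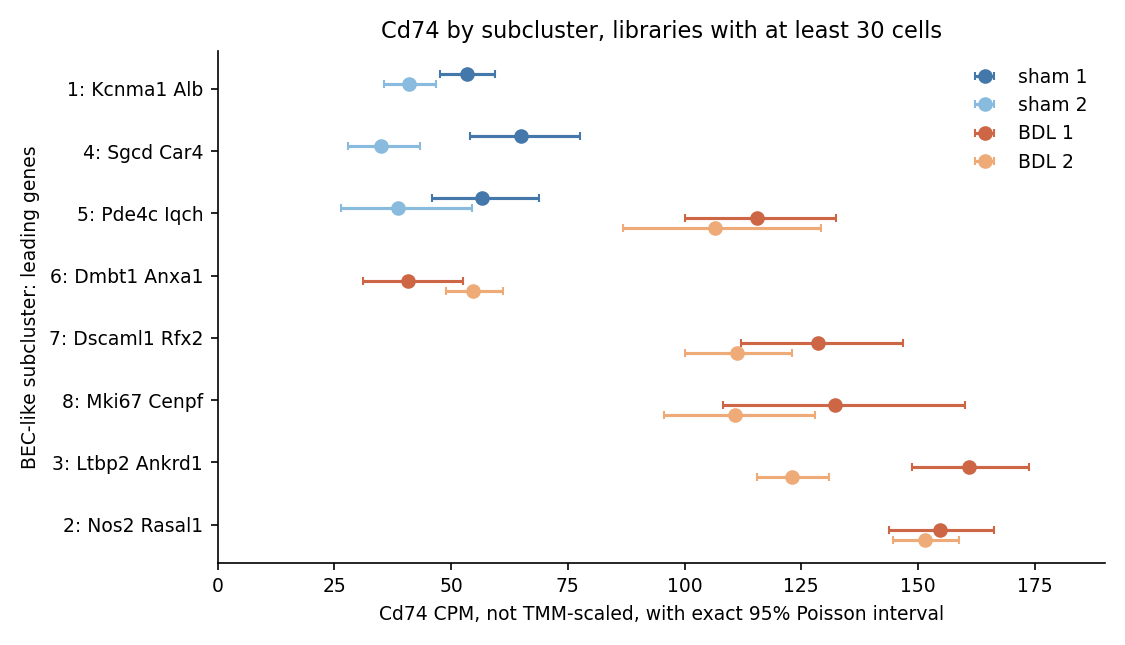
Cd74 CPM without TMM scaling in the 8 BEC-like subclusters, labelled by 2 leading genes, with a point for each library that gave 30 cells or more and exact 95% Poisson intervals for counting error. In the subcluster led by Dmbt1 and Anxa1 the BDL libraries lie at 40.9 and 54.7 CPM, among the sham values, and in the other subclusters they lie at 106 to 161 CPM.

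The BDL subclusters were not alike. Cd74 was highest in those led by Nos2 and Rasal1 (155 and 152 CPM in BDL 1 and BDL 2) and by Ltbp2 and Ankrd1 (161 and 123 CPM). The subcluster of dividing cells led by Mki67 had 132 and 111 CPM, and that led by Dscaml1 and Rfx2, in which the stress genes Fos and Hspa1a were also among the leading genes, had 129 and 111 CPM. The subcluster led by Dmbt1 and Anxa1 stood apart from these, at 40.9 CPM (exact 95% Poisson interval 31.2 to 52.6) and 54.7 CPM (48.9 to 61.1), on 60 and 319 UMIs. It held 9.37% and 17.6% of the BEC-like cells of BDL 1 and BDL 2, and its level was within the 35.0 to 65.0 CPM of the sham subclusters. Cells of a library share their mouse, so these are descriptions of 2 libraries.

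Ciita was highest in the subcluster led by Pde4c and Iqch, at 6.34, 7.23, 5.66 and 4.17 CPM in sham 1, sham 2, BDL 1 and BDL 2, on 11, 6, 10 and 4 UMIs. In the other subclusters of 30 cells or more it was between 0 and 3.74 CPM. The Ciita-rich subcluster did not have the highest Cd74 in either group. Its chain level in the sham libraries, 16.7 and 13.2 CPM on 29 and 11 UMIs, was the highest of the subclusters used there. Those led by Kcnma1 and Alb had 11.7 and 11.7 CPM, and those led by Sgcd and Car4 8.46 and 6.66 CPM. In BDL 1 and BDL 2 it was at 2.26 and 4.17 CPM, on 4 UMIs each, where the other subclusters had 2.72 to 8.22 and 2.86 to 11.1 CPM.

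Over the 18 subcluster and library profiles, centred within each library, the genes whose pattern was most like that of Cd74 were Tenm3 (Pearson r = 0.93), Clca3a2 (0.92), Birc2 (0.90), Fstl1 (0.89) and Rragd (0.89), out of 6442 genes compared. Those most like the summed chains were Ndufa4 (0.84), Ppm1b (0.81), Tsix (0.72), Fmr1 (0.71) and Zfp608 (0.71), on 4 to 74 chain UMIs per profile. Cd74 and the chains correlated at 0.28. Profiles of a library share its depth and its mouse, and the genes were chosen for their likeness, so these values are a description.

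In mesenchymal-like cells the chains, H2-DMb1 and Ciita had 0 to 2 UMIs each per library. Cd74 had 2, 17, 3 and 11 UMIs there, or 2.77, 13.4, 5.84 and 9.94 CPM without TMM scaling, and the groups overlapped. H2-Aa had 0 UMIs in all 4 libraries. H2-DMa, the sole member that passed the filter in this class, was at 15.3 and 12.8 TMM-scaled CPM in the sham and at 2.03 and 3.60 in the BDL libraries (log2 fold change -2.12, SE 0.63, edgeR adjusted p = 0.0785, where 6.64% of 8794 genes were called). Called by edgeR were 0 of 1 members tested, with 1 at an unadjusted p under 0.05, and DESeq2 called 0. Mesenchymal-like cells comprise clusters whose proportions differ between the libraries.

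The effect of ligation on Cd74 was not shown to differ between BEC-like and mesenchymal-like cells. The difference of the log2 fold changes was 1.62 (SE 0.65, edgeR interaction test, adjusted p = 0.184, where 5.61% of 15310 genes were called). It turned on the sham libraries: without sham 1 it was 2.30 (edgeR adjusted p = 0.00814), and without sham 2 it was -0.48 (edgeR adjusted p = 0.963). For H2-DMa the difference was 1.83 (SE 0.82, edgeR adjusted p = 0.249).

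In the immune cluster, 4 members passed the filter and edgeR called 0 of them, with 0 at an unadjusted p under 0.05 and 0 called by DESeq2, where edgeR called 0.861% of 1394 genes. The log2 fold changes were 0.26 for Cd74 (SE 0.48, edgeR adjusted p = 0.934), 0.57 for H2-Aa, 0.35 for H2-Ab1 and -0.26 for H2-Eb1. The 95% interval of Cd74 there ran from -0.75 to 1.27 on the log2 scale, and that in BEC-like cells from 1.06 to 1.81. The make-up of the cluster moved with the group: a list of 12 macrophage genes summed to 61.1 and 597 CPM in its sham and 1708 and 1204 CPM in its BDL libraries, and a list of 8 B-cell genes to 530 and 1351 against 27.6 and 110 CPM. The part of this shift in the values of the cluster was not tested.

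None of the factors that bind the X and Y boxes was called in BEC-like cells. Of 7 genes for the RFX, NF-Y and CREB factors (Rfx5, Rfxap, Rfxank, Nfya, Nfyb, Nfyc, Creb1), all were tested, and edgeR called 0 where 27.2% of all genes were called, with 0 at an unadjusted p under 0.05 and 0 called by DESeq2. Their log2 fold changes lay between -0.23 and 0.19. Rfx5, the DNA-binding subunit of RFX, stood at 20.1 and 18.7 TMM-scaled CPM in the sham and 23.2 and 21.2 in the BDL libraries.

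**Figure D5:**
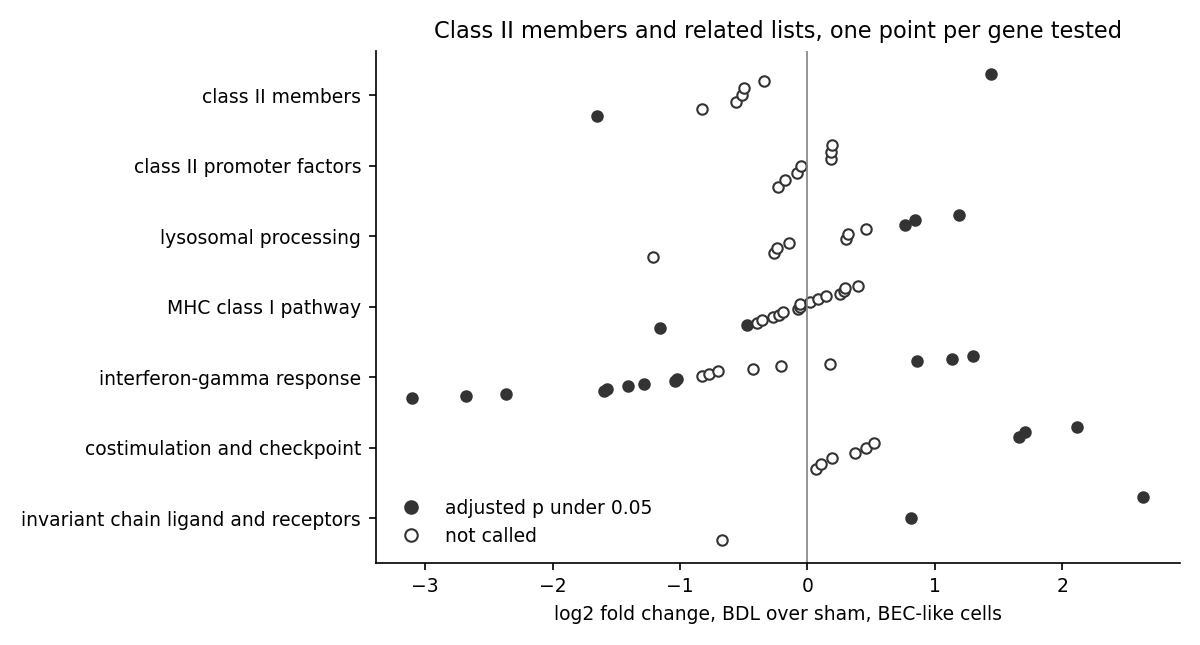
Log2 fold change (BDL over sham, edgeR) in BEC-like cells of each gene tested in the class II set and in 6 related lists; filled points have an adjusted p under 0.05. Genes of the interferon-gamma list reach from -3.10 to 1.30, and the promoter factors lie within -0.23 to 0.19.

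A list of 20 genes of the interferon gamma pathway held its receptor chains and kinases as well as genes that respond to it. Of 18 tested, edgeR called 9 lower and 3 higher (DESeq2 8 and 2), where 27.2% of all genes were called in either direction, with a median log2 fold change of -0.92 against -0.02 for all genes. Socs3, a feedback inhibitor of cytokine signalling, fell from 42.1 and 52.7 to 8.85 and 9.49 TMM-scaled CPM (log2 fold change -2.36, edgeR adjusted p = 0.000417). The interferon-induced GTPases Iigp1 (-3.10) and Irgm1 (-2.68) fell likewise (edgeR adjusted p = 0.000857 and 0.000887). The receptor chain Ifngr1 rose, from 75.6 and 71.7 to 160 and 164 CPM (log2 fold change 1.13, edgeR adjusted p = 0.00102). Named after their values were seen, the second receptor chain Ifngr2 rose (1.30) and Irf1 (-1.60), a transcription factor that acts on Ciita, fell (edgeR adjusted p = 0.00374 and 0.00542). Not every responding gene that was called fell. Gbp4, named in the same way, rose from 5.92 and 4.61 to 10.8 and 8.51 CPM (log2 fold change 0.86, edgeR adjusted p = 0.0403).

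In the class I pathway, which presents peptides from the cytosol, edgeR called 0 higher and 2 lower of 17 tested, where 27.2% of all genes were called (median log2 fold change -0.06). Nlrc5, the class I counterpart of Ciita, fell from 82.7 and 99.0 to 38.9 and 42.5 TMM-scaled CPM (log2 fold change -1.15, edgeR adjusted p = 0.00204). H2-Q4, a non-classical class I gene, fell by 0.48 on the log2 scale (edgeR adjusted p = 0.0191). It belongs to a family of similar genes among which reads can be divided, and its call was lost without sham 1 (edgeR adjusted p = 0.138) and without sham 2 (edgeR adjusted p = 0.129), and with no filter on low counts (-0.35, edgeR adjusted p = 0.0998).

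The list for lysosomal processing holds proteases that cut antigen and the invariant chain, and beside them a protease inhibitor, a membrane protein and ubiquitin ligases. Of its genes 10 of 11 were tested, and edgeR called 3 higher and 0 lower, a share near the 27.2% of all genes (median log2 fold change 0.31). The cathepsin Ctsh rose from 31.9 and 29.0 to 66.1 and 72.7 TMM-scaled CPM (log2 fold change 1.19), the lysosomal membrane protein Lamp1 by 0.76 and the cathepsin Ctsd by 0.84 on the log2 scale (edgeR adjusted p = 0.00144, 0.00375 and 0.0113). Without sham 1 the call of Ctsd was lost (edgeR adjusted p = 0.0994). Ctss, which in professional antigen-presenting cells makes the last cuts in the invariant chain, was at 4.76 and 1.37 against 2.01 and 0.820 CPM, with overlapping groups.

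Of the costimulation, adhesion and checkpoint genes, 9 of 11 were tested, and edgeR called 3 higher and 0 lower, again near the 27.2% of all genes (median log2 fold change 0.46). Vcam1, which binds T cells and monocytes, rose from 605 and 805 to 2273 and 2183 TMM-scaled CPM (log2 fold change 1.66, edgeR adjusted p = 0.00124). Cd276, a member of the B7 family, rose by 1.71 and Cd40, the receptor of a T-cell ligand, by 2.11 on the log2 scale (edgeR adjusted p = 0.00426 and 0.0213). The call of Cd40 was lost without sham 1 (1.55, edgeR adjusted p = 0.120). Cd86, a ligand of CD28 on T cells, was at 2.82 and 2.86 against 3.87 and 3.94 CPM and was not called, and Cd80 did not pass the filter.

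The ligand and a partner of the invariant chain at the cell surface rose with Cd74. Of 3 genes tested in a list of 5, edgeR called 2 higher and 0 lower, where 27.2% of all genes were called (median log2 fold change 0.82). Cd44, the co-receptor through which CD74 signals, rose from 295 and 342 to 1795 and 2156 TMM-scaled CPM, a log2 fold change of 2.63 (SE 0.16, edgeR adjusted p = 0.000376). Mif, the ligand, rose from 14.9 and 13.8 to 24.8 and 25.7 CPM, a log2 fold change of 0.82 (SE 0.15, edgeR adjusted p = 0.00916). The call of Mif was lost without sham 1 (edgeR adjusted p = 0.0584) and without sham 2 (edgeR adjusted p = 0.0696). Its relative Ddt was at 7.38 and 9.71 against 5.67 and 5.05 CPM and was not called.

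In the pair sham 1 and BDL 1 alone, all 22 genes called in the related lists had the direction of the fit. The log2 ratio there was 2.61 for Cd44, 0.74 for Mif, 1.05 for Ctsh, 1.91 for Vcam1, 1.08 for Ifngr1, -2.25 for Socs3 and -1.09 for Nlrc5. These are ratios of 2 libraries that the fit also used, with no test. The genes were picked by their call in that fit, so the shared direction was largely set in advance. It cannot decide which group names are right.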

How the data were processed

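The deposited matrices hold UMI counts per cell and gene, not normalized, per the file headers. Per the labels' protocols, fixed whole cells were barcoded in pools that were split repeatedly (Evercode, Parse Biosciences), after reverse transcription from hexamer and oligo(dT) primers. The submitters' processing notes name the build GRCm39, and the aligner and doublet handling are not given in the sources used here.

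Cells under 500 UMIs (7) or over 20% mitochondrial UMIs (10) were left out of 12211. Scrublet (scanpy 1.11.5) marked 11, which were removed, leaving 12183. The 2000 most variable genes, without class II genes, gave 30 components and 19 Leiden clusters at resolution 1 (leidenalg 0.10.2, scikit-learn 1.9.0). A cluster took a class name with at least 3 markers detected in 5% of its cells and over 2-fold higher. After the clusters were seen, a non-biliary name was made to need a marker among the top 100 genes, which left 29 cells unnamed, and the macrophage-named cluster was called immune because other immune markers led it too.

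Counts summed per library and class were tested, BDL against sham, with edgeR 4.0.16 (R 4.3.3; TMM, filterByExpr, quasi-likelihood, Benjamini-Hochberg, threshold 0.05) on all genes, with DESeq2 1.42.0 as an alternative. On simulated BEC-like sums of 15556 genes, 94% of 200 genes changed by 2 on the log2 scale were recovered with 5 false calls. On mesenchymal-like and immune sums 89.5% and 81.5% were recovered. The simulated spread between libraries was smaller than the fitted one in each class. The members not called had smaller fold changes, so the simulation does not show how often changes of their size would be found. Replicates were no copies: chi-square per degree of freedom was 25.6 (sham) and 37.8 (BDL). The 7 members were always named, and from each other list up to 4 genes with the smallest adjusted p under 0.05. The members, lists and tests were chosen with earlier results of these data known. Intervals cover counting error only, and p-values the spread between these libraries.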

Additional observations from a re-analysis of the deposited data

Results flagged for a closer look

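For 3 genes of the related lists, the effect of ligation differed between BEC-like and mesenchymal-like cells by edgeR's interaction test, where 5.61% of 15310 genes were called. The value is the log2 fold change in BEC-like minus that in mesenchymal-like cells, with p adjusted over all genes. Looked at were the members, the genes picked from each list by their adjusted p in BEC-like cells, Irf1 and Ifngr2. Socs3 differed by -2.43 (SE 0.31, edgeR adjusted p = 7.24e-05), with log2 fold changes of -2.36 in BEC-like and 0.05 in mesenchymal-like cells. For Cd44 the difference was 1.17 (SE 0.29, edgeR adjusted p = 0.0212), with 2.63 and 1.44 in the 2 classes. H2-Q4 gave 1.11 (SE 0.29, edgeR adjusted p = 0.0283), with -0.48 and -1.58. None of the class II members passed this test with all 4 libraries. With 2 libraries per group, no search for outlying libraries was possible.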

How the results depend on the processing

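No paired analysis was possible because library numbers follow sample order and tie nothing across groups. Cd74 kept its call in BEC-like cells under all 18 alternatives tried (log2 fold change 1.29 to 1.66), and H2-Eb1 under 16 of the 17 that tested it. With genes of at least 10 CPM in 2 libraries, Cd74 was the sole member tested and 1 member was called. Leaving out each library in turn gave 1432 to 6200 genes called in BEC-like cells, the low counts being 1432 without sham 1 and 1712 without sham 2, 1 to 2 members called, and -1.96 to -1.17 for H2-Eb1. The lone library of a group was then assumed to vary like the others. No member changed sign in BEC-like cells under these alternatives, but H2-DMb1 ran from -0.89 without sham 1 to -0.02 without sham 2, and H2-Aa from -1.5 to -0.42. Upper-quartile scaling moved the median of all genes from -0.02 to -0.13 and the share of calls that are higher from 52.4% to 41.5%, and Cd74 was at 1.34 there. With no filter on low counts that share was 62.6%.

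The difference in the share of BEC-like cells with a chain UMI was 0.163 points with no thinning. Effects that differ between BEC-like and mesenchymal-like cells were called for 0 to 1 members without single libraries, with ranges of -0.48 to 2.31 for Cd74, -2.00 to 5.79 for H2-Eb1 and -6.04 to 4.20 for Ciita. In the immune cluster, leaving out single libraries gave -0.19 to 0.71 for Cd74, 0.02 to 1.33 for H2-Aa, -0.075 to 0.82 for H2-Ab1 and -0.54 to 0.14 for H2-Eb1, and H2-Eb1 was at 0.30 with immune cells taken by at least 3 panel genes (added after the data were seen) and at 0.10 with no filter. In mesenchymal-like cells edgeR called 584 genes, against 153 to 1140 without single libraries, 1112 with no filter and 373 with DESeq2. In the immune cluster it called 12, against 0 to 38 without single libraries, 55 with no filter, 0 by panel genes and 6 with DESeq2, and no member was among them in either class. The causes were not tested. Members other than Cd74 rest on 8 to 147 UMIs per library in BEC-like cells.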

Other observations

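A few BEC-like cells held several chain UMIs. Cells with 3 or more UMIs of H2-Aa, H2-Ab1 and H2-Eb1 together numbered 5 in sham 1, 4 in sham 2, 2 in BDL 1 and 15 in BDL 2, and gave 15.5%, 14.9%, 7.14% and 40.7% of the chain UMIs of the BEC-like cells in those libraries. The cell with the most, in BDL 2, had 14 chain UMIs (8 of H2-Eb1) and 18 of Cd74, with 10 of the 11 biliary markers detected and 0 UMIs of the immune panel. Of these cells, 0, 1, 0 and 3 had a UMI of the panel, and the fewest biliary markers in any of them were 6, 5, 10 and 8. The cells were singled out by their chain counts, so the values are a description, and the part of doublets in them was not tested.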
